A study of Homo sapiens with 6 samples.

Results

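The protein kinases GSK3, CDK5, MARK and DYRK1A, which phosphorylate the microtubule-binding protein tau, were followed through 10 genes in differentiated SH-SY5Y cells, a human neuroblastoma line. The genes were taken by name: the GSK3 paralogs GSK3A and GSK3B, the kinase CDK5 with its activator genes CDK5R1 and CDK5R2, the 4 MARK genes MARK1 to MARK4, and DYRK1A. They are 10 of the 61860 gene rows of the deposited table, each name had 1 row, and all 10 were among the 16574 genes that passed the filter on low counts.

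The 3 IR+Oligonol libraries came from retinoic acid-differentiated cells held for 24 h in 30 mM D-glucose with insulin at 100 nM, the labels' insulin resistance (IR) model, and Oligonol, a polyphenol preparation made from lychee fruit, at 500 ng/mL for 24 h. The 3 IR control libraries came from cells with the same differentiation, insulin and glucose but without Oligonol. Whether Oligonol was given with or after the insulin is not stated in the labels, nor is whether the libraries of a group came from separate cultures. The p-values therefore cover only the spread among these 6 libraries, which may be technical. Cells without the IR treatment were not analysed here, so the values below compare Oligonol with no Oligonol in IR cells. The model is a single cell line, and the RNA is bulk RNA, in which fewer cells of a type and less RNA per cell cannot be told apart.

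Tau binds and stabilises microtubules, and phosphorylation of its microtubule-binding repeats or flanking regions loosens that binding. GSK3 is inhibited when insulin signalling activates AKT, which phosphorylates an N-terminal serine of both paralogs. CDK5 is inactive until it binds an activator, and its activators are largely restricted to neurons. MARK kinases phosphorylate KXGS motifs in the repeats of tau, and DYRK1A, encoded on chromosome 21, can prime tau for phosphorylation by GSK3. Transcript levels only were measured, and no kinase activity or phosphorylation was analysed here.

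Across the libraries, the deposited estimated counts summed to 19457923 to 20912945 in IR+Oligonol and 22738203 to 32209583 in IR control libraries. Protein-coding genes held 10.0 to 12.3% of them in IR+Oligonol and 6.24 to 6.83% in IR control libraries. These totals and shares are of estimates read as values per length, described under processing, and not of reads. The mean transcript GC content of the protein-coding estimated counts was 51.5, 53.4 and 51.8% in IR+Oligonol and 55.0, 55.1 and 55.1% in IR control libraries. Levels are given as CPM, the estimated counts scaled to a common library size by TMM, and differences as log2 fold changes of IR+Oligonol over IR control with adjusted p-values from edgeR's quasi-likelihood test, called at an adjusted p under 0.05. Over all tested genes the median log2 fold change was 0.15. Scaled by library totals alone it was 1.53, all 10 kinase genes then had positive log2 fold changes and none was called lower, so every direction below is relative to TMM scaling. Of the cell-type lists checked, noradrenergic neuroblast markers summed to 221 to 312 CPM in IR+Oligonol and 366 to 449 CPM in IR control libraries, with TH under 1 CPM in all 6 libraries. Of 13 tested, 4 were called lower, beside 23.0% of all tested genes, with a median log2 fold change of -0.63, and with the trend over transcript GC content removed, as described below, the median turned to 0.16 and the smallest edgeR adjusted p was 0.0877. Glial markers summed to 1.76 to 2.25 CPM in IR+Oligonol and 1.73 to 2.27 CPM in IR control libraries, with 8 of 9 under 1 CPM in all libraries and OLIG1 at 0. Myeloid markers summed to 0.813 to 1.41 CPM in IR+Oligonol and 0.772 to 1.60 CPM in IR control libraries, with 5 of 6 under 1 CPM. Fibroblast and mesenchymal markers summed to 37.9 to 41.7 CPM in IR+Oligonol and 45.1 to 65.8 CPM in IR control libraries, with COL1A1, COL1A2, DCN and LUM under 1 CPM. VIM, the highest of them, had 18.6 to 18.8 CPM in IR+Oligonol and 20.3 to 35.1 CPM in IR control libraries. Of 6 tested, 1 was called higher and 2 lower, beside 26.0 and 23.0% of all tested genes. With the GC trend removed, 1 was called lower, beside 2.52% of tested genes: COL3A1 (log2 fold change -1.08, adjusted p = 0.0386, edgeR quasi-likelihood test). The part of these lists in the results was not tested.

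The promoters are shown for both GSK3 paralogs, which differed in opposite directions, for DYRK1A, the other gene called without each library in turn, and for the activator gene CDK5R2. Sequences are from RefSeq (GRCh38.p14), 250 bases before to 50 bases after the annotated start, in the gene's direction, with capitals marking a GC box (GGGCGG or its complement CCGCCC). Of the 10 genes, 9 had an entry. The windows lie at chr3:120094398-120094697 (minus strand) for GSK3B, chr19:42242553-42242852 (minus strand) for GSK3A, chr21:37365323-37365622 (plus strand) for DYRK1A, the entry that begins 250 bases before the start of the deposited gene, and chr2:218959416-218959715 (plus strand) for CDK5R2.
GSK3B: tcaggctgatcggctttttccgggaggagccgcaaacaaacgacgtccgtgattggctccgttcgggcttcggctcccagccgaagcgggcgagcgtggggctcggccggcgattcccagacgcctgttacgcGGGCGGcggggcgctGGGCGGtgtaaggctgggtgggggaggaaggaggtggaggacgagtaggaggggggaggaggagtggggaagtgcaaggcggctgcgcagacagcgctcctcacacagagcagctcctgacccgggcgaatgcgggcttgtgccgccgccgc
GSK3A: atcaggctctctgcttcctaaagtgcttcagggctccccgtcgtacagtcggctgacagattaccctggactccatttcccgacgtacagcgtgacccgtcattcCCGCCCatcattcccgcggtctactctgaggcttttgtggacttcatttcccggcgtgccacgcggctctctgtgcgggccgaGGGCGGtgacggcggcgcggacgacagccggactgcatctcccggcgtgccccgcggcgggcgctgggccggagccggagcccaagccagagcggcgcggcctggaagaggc
DYRK1A: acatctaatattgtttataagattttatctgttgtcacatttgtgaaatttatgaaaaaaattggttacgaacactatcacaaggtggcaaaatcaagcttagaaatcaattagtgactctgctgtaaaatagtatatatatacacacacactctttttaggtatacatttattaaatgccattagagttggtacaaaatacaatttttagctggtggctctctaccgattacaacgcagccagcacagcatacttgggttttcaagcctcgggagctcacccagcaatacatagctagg
CDK5R2: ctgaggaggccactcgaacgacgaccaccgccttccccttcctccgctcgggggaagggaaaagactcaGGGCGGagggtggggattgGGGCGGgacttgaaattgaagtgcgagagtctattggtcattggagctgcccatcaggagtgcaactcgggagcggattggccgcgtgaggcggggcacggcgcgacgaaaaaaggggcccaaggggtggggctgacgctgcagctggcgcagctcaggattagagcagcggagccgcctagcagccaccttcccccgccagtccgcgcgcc

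The GSK3B and GSK3A windows were alike in composition, at 69.3 and 67.3% GC with 33 and 34 CpG dinucleotides, and each held 2 GC boxes. The CDK5R2 window had 66.0% GC and 26 CpG, with 2 GC boxes and 4 CCAAT motifs on either strand. The DYRK1A window had 35.0% GC and 4 CpG, no GC box, 1 TATAAA and 1 CCAAT motif, but DYRK1A has 6 annotated windows, whose GC content runs between 31.3 and 81.7%. Over all 35116 promoters the median was 58.7% GC and 14 CpG, and 45.0% held GGGCGG, 11.5% TATAAA and 34.6% CCAAT on either strand. A match is a letter match only.

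The GSK3 paralogs moved in opposite directions: GSK3B rose and GSK3A fell with Oligonol. GSK3B, on chromosome 3 (119821321 to 120094994, minus strand, GRCh38.p13), had 31.1, 18.1 and 26.8 CPM in IR+Oligonol and 10.4, 9.12 and 5.32 CPM in IR control libraries. The lowest IR+Oligonol library, the second, lay above the highest control library. Means were 25.3 ± 6.63 CPM in IR+Oligonol and 8.29 ± 2.66 CPM in IR control libraries (SD, n = 3 each), a fitted 3.06-fold level (log2 fold change 1.61, SE 0.32, adjusted p = 0.00922, edgeR quasi-likelihood test). In read equivalents, an approximate number of reads worked out from the estimated count and the transcript length, GSK3B had 1886 to 3642 in IR+Oligonol and 494 to 935 in IR control libraries. GSK3A, on chromosome 19 (42226225 to 42242625, minus strand), had 8.93, 12.2 and 11.2 CPM in IR+Oligonol and 18.0, 17.3 and 19.6 CPM in IR control libraries, again with no overlap. Its means were 10.8 ± 1.67 CPM in IR+Oligonol and 18.3 ± 1.18 CPM in IR control libraries, a fitted 0.588-fold level (log2 fold change -0.77, SE 0.20, adjusted p = 0.0177, edgeR quasi-likelihood test). Across all tested genes, 26.0% were called higher and 23.0% lower, and 4 and 4 of the 10 kinase genes were. GSK3B was called without each library in turn (log2 fold change 1.37 to 1.81), while the GSK3A call was lost without the first (adjusted p = 0.0769) or the third (0.0639) IR+Oligonol library or the third control library (0.0553). With the trend over transcript GC content removed, described below, neither was called, at log2 fold changes of 0.97 for GSK3B and 0.09 for GSK3A (adjusted p = 0.0686 and 0.706, edgeR quasi-likelihood test).

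Together the 2 paralogs summed to 40.0, 30.2 and 38.0 CPM in IR+Oligonol and 28.4, 26.4 and 24.9 CPM in IR control libraries. The GSK3B to GSK3A ratio was 3.48, 1.49 and 2.39 in IR+Oligonol and 0.579, 0.528 and 0.272 in IR control libraries. GSK3B was thus the more abundant paralog in each IR+Oligonol library and GSK3A in each IR control library, and the log2 ratios differed by 2.41 (exact permutation p = 0.1, the smallest that 3 against 3 libraries allow, adjusted 0.15 over 6 ratios). With the GC trend removed, the ratio was 1.67, 1.24 and 1.28 in IR+Oligonol and 0.938, 0.854 and 0.483 in IR control libraries, the same order (log2 difference 0.93, exact permutation p = 0.1, adjusted 0.3).

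**Figure D1:**
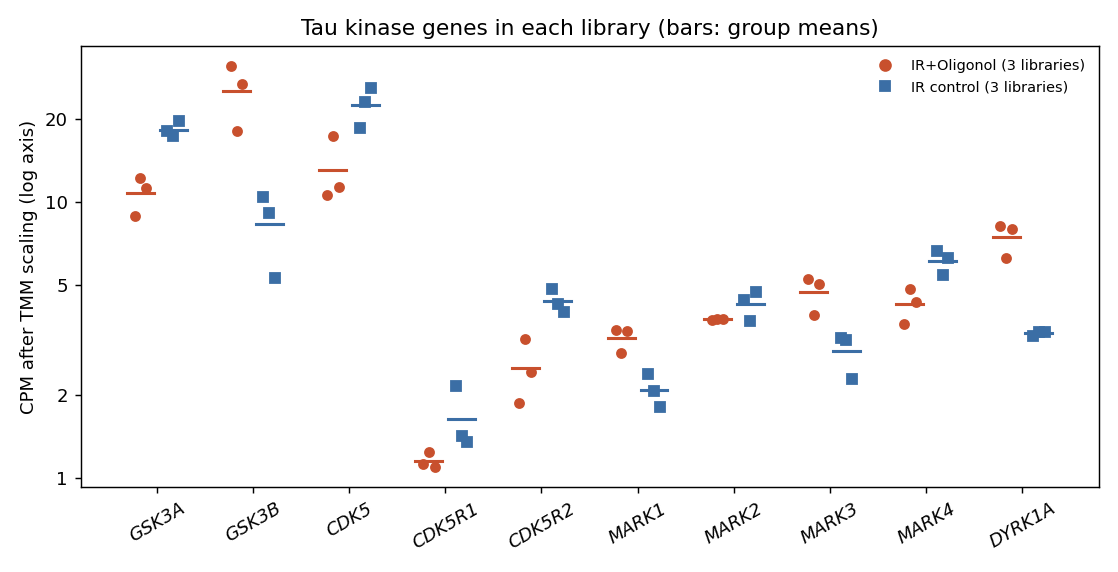
CPM after TMM scaling of each kinase gene (log axis) in the 3 IR+Oligonol libraries (circles, left) and the 3 IR control libraries (squares, right), with bars at the group means. GSK3B, MARK1, MARK3 and DYRK1A lie wholly above, and GSK3A, CDK5, CDK5R1, CDK5R2 and MARK4 wholly below, the IR control libraries, while MARK2 overlaps.

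CDK5 and its activator genes all had lower values with Oligonol, and 2 of these 3 genes passed the test. Of all tested genes, 23.0% were called lower, and 28.9% lay wholly below the control libraries. CDK5, a kinase of postmitotic neurons on chromosome 7 (151053815 to 151057897, minus strand), had 10.6, 17.3 and 11.4 CPM in IR+Oligonol and 18.5, 23.0 and 25.8 CPM in IR control libraries. The groups did not overlap, but the second IR+Oligonol library came close to the first control library. Means were 13.1 ± 3.65 CPM in IR+Oligonol and 22.4 ± 3.68 CPM in IR control libraries (log2 fold change -0.78, SE 0.26, adjusted p = 0.0377, edgeR quasi-likelihood test). CDK5R2, which encodes the activator p39, lies on chromosome 2 (218959666 to 218962155, plus strand) and had 1.87, 3.19 and 2.42 CPM in IR+Oligonol and 4.83, 4.27 and 3.97 CPM in IR control libraries. It fell to a fitted 0.569-fold of the IR control level (log2 fold change -0.81, SE 0.23, adjusted p = 0.0210, edgeR quasi-likelihood test). CDK5R1, which encodes the activator p35 on chromosome 17 (32486993 to 32491253, plus strand), had 1.12, 1.24 and 1.09 CPM in IR+Oligonol and 2.15, 1.42 and 1.34 CPM in IR control libraries. The groups did not overlap, but the difference did not pass the test (log2 fold change -0.51, SE 0.25, adjusted p = 0.117, edgeR quasi-likelihood test), and CDK5R1 had the fewest reads, 69.9 to 73.3 read equivalents in IR+Oligonol and 67.3 to 107 in IR control libraries. The CDK5 call was lost without the first (adjusted p = 0.136) or the third (0.134) IR+Oligonol library or the second (0.0958) or the third (0.110) control library, and the CDK5R2 call without the first (0.0769) or the third (0.0706) IR+Oligonol library or the first (0.0569) or the second (0.0539) control library. After GC trend removal, CDK5 came to -0.23 (adjusted p = 0.376, edgeR quasi-likelihood test) and was not called, and CDK5R2 turned to 0.19 (adjusted p = 0.438) and CDK5R1 to 0.19 (adjusted p = 0.655). SLC4A2, on the opposite strand, overlaps CDK5, and the sources used here do not say whether counting used strand.

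For CDK5 and its activator genes, the ratios overlapped between the groups. The CDK5R1 to CDK5 ratio was 0.106, 0.0721 and 0.0964 in IR+Oligonol and 0.116, 0.0620 and 0.0520 in IR control libraries (log2 difference 0.33, exact permutation p = 0.5). The CDK5R2 to CDK5R1 ratio was 1.67, 2.56 and 2.21 in IR+Oligonol and 2.25, 3.00 and 2.96 in IR control libraries (log2 difference -0.36, exact permutation p = 0.2). The summed activator genes were 2.99, 4.43 and 3.52 CPM in IR+Oligonol and 6.97, 5.69 and 5.32 CPM in IR control libraries, without overlap.

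The MARK family, kinases named for their effect on microtubule affinity, overlapped between the groups in its summed level. Of its genes, 2 rose and 1 fell, beside 26.0% called higher and 23.0% called lower of all tested genes. The 4 MARK genes summed to 16.0, 15.3 and 16.6 CPM in IR+Oligonol and 16.6, 14.4 and 15.1 CPM in IR control libraries. MARK3, on chromosome 14 (103385377 to 103503831, plus strand), rose to 5.24, 3.89 and 5.04 CPM in IR+Oligonol, against 3.22, 3.17 and 2.28 CPM in IR control libraries (log2 fold change 0.71, SE 0.21, adjusted p = 0.0252, edgeR quasi-likelihood test). MARK1, on chromosome 1 (220528136 to 220664461, plus strand), rose to 3.42, 2.84 and 3.40 CPM in IR+Oligonol, against 2.38, 2.07 and 1.81 CPM in IR control libraries (log2 fold change 0.63, SE 0.19, adjusted p = 0.0267, edgeR quasi-likelihood test). MARK4, on chromosome 19 (45079288 to 45305284, plus strand), fell to 3.61, 4.82 and 4.35 CPM in IR+Oligonol, against 6.62, 5.43 and 6.25 CPM in IR control libraries (log2 fold change -0.52, SE 0.18, adjusted p = 0.0449, edgeR quasi-likelihood test). MARK2, on chromosome 11 (63838928 to 63911020, plus strand), had 3.74, 3.77 and 3.77 CPM in IR+Oligonol and 4.41, 3.69 and 4.73 CPM in IR control libraries and did not pass the test (log2 fold change -0.19, SE 0.17, adjusted p = 0.375, edgeR quasi-likelihood test). In CPM after TMM scaling, MARK2 was the only kinase gene of the 10 whose groups overlapped. Over all tested genes, 33.9% lay wholly above and 28.9% wholly below the control libraries. With the GC trend removed, 5 of the 10 overlapped, and MARK2 lay wholly above the control libraries.

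As shares of the family's summed CPM, MARK1 held 20.1 ± 1.46% in IR+Oligonol and 13.6 ± 1.36% in IR control libraries (SD, n = 3 each), and MARK3 held 29.5 ± 3.76% in IR+Oligonol and 18.8 ± 3.51% in IR control libraries. MARK4 held 26.8 ± 4.49% in IR+Oligonol and 39.7 ± 1.82% in IR control libraries, and MARK2 held 23.6 ± 0.938% in IR+Oligonol and 27.9 ± 3.09% in IR control libraries. MARK4 was the most abundant member in each IR control library. Relative to MARK2, MARK1 differed by 0.81 on the log2 scale, MARK3 by 0.89 and MARK4 by -0.35, each with an exact permutation p of 0.1 (adjusted 0.15 over 6 ratios), the smallest possible. With the GC trend removed, the MARK1 to MARK2 and MARK3 to MARK2 differences turned to -0.77 (exact permutation p = 0.1, adjusted 0.3) and -0.51 (exact permutation p = 0.2). The MARK4 to MARK2 difference came to -0.17 (exact permutation p = 0.2), with overlapping groups. None of the 3 MARK calls remained after GC trend removal (log2 fold changes -0.20 for MARK1, 0.58 for MARK2, 0.06 for MARK3 and 0.40 for MARK4, with edgeR adjusted p of 0.409, 0.0845, 0.835 and 0.130). Each MARK call was also lost on leaving out some library. For MARK1 these were the first (adjusted p = 0.0879) and the third (0.0954) IR+Oligonol and the second (0.0784) and the third (0.0853) control libraries. For MARK3 they were the same libraries (0.0811, 0.0848, 0.0539 and 0.0796). For MARK4 they were the first (0.177) and the third (0.118) IR+Oligonol libraries and all 3 control libraries (0.0681 to 0.109). The deposited gene span of MARK4 overlaps 9 other rows, including PPP1R37 and GEMIN7 on its own strand.

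**Figure D2:**
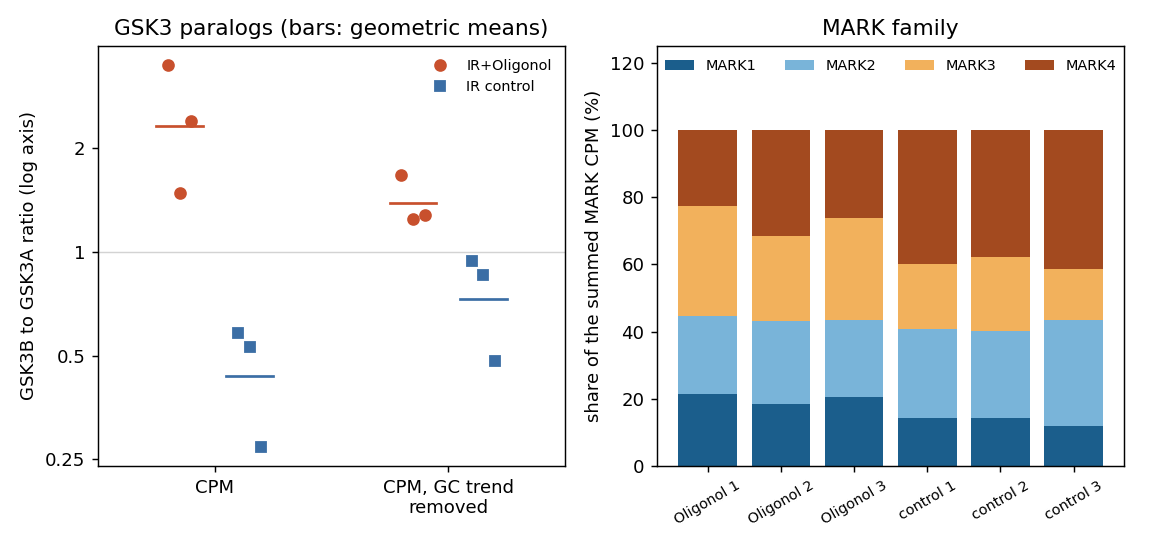
Left, the GSK3B to GSK3A ratio per library (log axis) in IR+Oligonol (circles) and IR control (squares) libraries, from CPM and from CPM with the GC trend removed, with bars at geometric means; every IR+Oligonol ratio is above 1 and every IR control ratio below it. Right, the share of the summed MARK CPM (%) held by each gene in each library; MARK4 averages 26.8% in IR+Oligonol and 39.7% in IR control libraries.

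DYRK1A, a dual-specificity kinase on chromosome 21 (37365573 to 37526358, plus strand), rose with Oligonol. It had 8.20, 6.26 and 7.95 CPM in IR+Oligonol and 3.28, 3.36 and 3.39 CPM in IR control libraries. The control libraries were nearly identical, and the lowest IR+Oligonol library, the second, was well above them. The means were 7.47 ± 1.06 CPM in IR+Oligonol and 3.34 ± 0.0585 CPM in IR control libraries (SD, n = 3 each), a fitted 2.24-fold level (log2 fold change 1.16, SE 0.18, adjusted p = 0.00675, edgeR quasi-likelihood test). Without each library in turn the log2 fold change stayed between 1.09 and 1.26 and the call held. Removal of the GC trend left it at 0.42 and ended the call (adjusted p = 0.0683, edgeR quasi-likelihood test).

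Other processing also ended calls at the threshold. With no filter on low counts, the edgeR adjusted p was 0.0662 for GSK3A, 0.129 for CDK5, 0.0699 for CDK5R2, 0.0558 for MARK1, 0.0575 for MARK3 and 0.128 for MARK4. With at least 10 estimated counts in all libraries it was 0.0538 for CDK5 and 0.221 for MARK4, and upper-quartile scaling gave 0.0718 for MARK4. MARK1 had an adjusted p of 0.0603 in DESeq2 and 0.0593 in edgeR on read equivalents. GSK3B and DYRK1A were called under each of these.

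Among the 10, the order of levels also differed. From the highest mean, IR+Oligonol libraries ran GSK3B, CDK5, GSK3A, DYRK1A, MARK3, MARK4, MARK2, MARK1, CDK5R2 and CDK5R1, and IR control libraries ran CDK5, GSK3A, GSK3B, MARK4, CDK5R2, MARK2, DYRK1A, MARK3, MARK1 and CDK5R1. In IR+Oligonol, CDK5 and GSK3A, the run of MARK3, MARK4 and MARK2, and MARK1 and CDK5R2 overlapped with their neighbours. In IR control libraries, CDK5 and GSK3A, GSK3B and MARK4, CDK5R2 and MARK2, and the run of MARK3, MARK1 and CDK5R1 did. Levels of different genes were set side by side because the deposited estimates were read as values per length. That reading was fitted on genes with a single annotated transcript, while the 10 genes have between 1 and 26. The trend over transcript GC content, described below, was not removed from these orders.

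A property the genes were not chosen for lined up with the direction of every called gene. The median GC content of the annotated transcripts was 42.9 to 45.4% in the 4 genes that rose and 56.2 to 66.1% in the other 6. Protein-coding genes were split into deciles of GC content. In the decile that holds MARK1 and DYRK1A (42.7 to 44.9%), 56.1% of genes were called higher and 0.597% lower, and the median log2 fold change was 0.80, and in the one that holds GSK3B and MARK3 (44.9 to 47.5%) these were 43.6%, 1.28% and 0.61. In the decile with CDK5 (53.4 to 56.5%), 36.7% were called lower, in that with CDK5R1 and MARK2 62.9%, in that with GSK3A and MARK4 77.2%, and in that with CDK5R2 81.7%. All 8 called kinase genes were called in the more frequent direction of their decile, and CDK5R1 and MARK2 were not called. GSK3B at 1.61 and MARK3 at 0.71 stood above their decile's median of 0.61, and DYRK1A at 1.16 above 0.80. MARK2 at -0.19 and CDK5R1 at -0.51 were above -0.79, MARK4 at -0.52 and GSK3A at -0.77 above -0.94, and CDK5R2 at -0.81 above -1.05. CDK5 at -0.78 lay below its decile's median of -0.46, and MARK1 at 0.63 below 0.80.

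**Figure D3:**
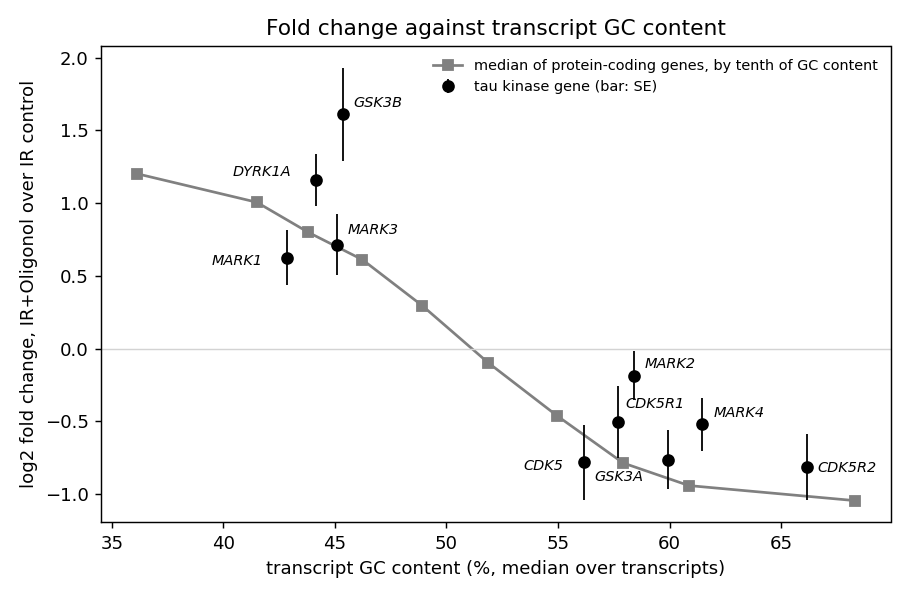
Log2 fold change of IR+Oligonol over IR control against transcript GC content (%) for the 10 kinase genes (circles, bars are SE), with squares for the median of protein-coding genes in each decile of GC content. The 4 genes at 42.9 to 45.4% GC are above 0 and the 6 at 56.2 to 66.1% GC are below it.

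After removing the GC trend, fitted over protein-coding genes, none of the 10 kinase genes passed edgeR's quasi-likelihood test, and 4 had an unadjusted p under 0.05. Across the 16200 tested genes with a GC value, 2.90% were then called higher and 2.52% lower. GSK3B had 23.2, 16.2 and 20.8 CPM in IR+Oligonol and 13.02, 10.9 and 6.86 CPM in IR control libraries (log2 fold change 0.97, SE 0.25, adjusted p = 0.0686, edgeR quasi-likelihood test), a fitted 1.97-fold level with no overlap. DYRK1A had 5.84, 5.52 and 5.93 CPM in IR+Oligonol and 4.24, 4.06 and 4.65 CPM in IR control libraries (log2 fold change 0.42, SE 0.11, adjusted p = 0.0683, edgeR quasi-likelihood test). MARK2 had 5.55, 4.02 and 5.22 CPM in IR+Oligonol and 3.52, 2.84 and 3.52 CPM in IR control libraries (log2 fold change 0.58, adjusted p = 0.0845, edgeR quasi-likelihood test). With the GC trend removed, 4 kinase genes lay wholly above and 1 wholly below the control libraries, against 19.0% above and 16.1% below over all genes, and without the trend removal the counts were 4 and 5, against 33.9 and 28.9%. With the GC content of the longest transcript in place of the median, GSK3A was called lower (log2 fold change -0.53, adjusted p = 0.0457, edgeR quasi-likelihood test).

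**Figure D4:**
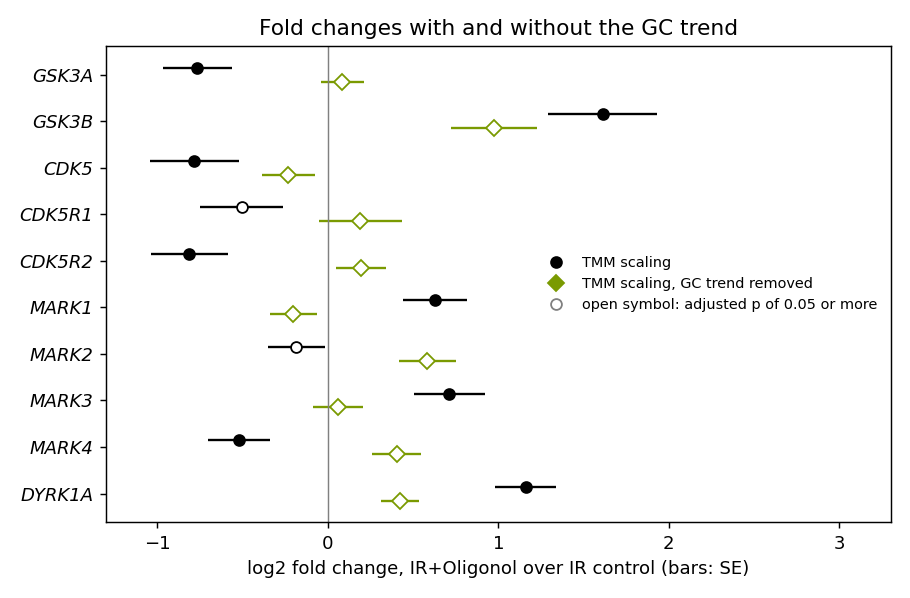
Log2 fold change of IR+Oligonol over IR control for each kinase gene, with TMM scaling (circles) and with the GC trend also removed (diamonds); bars are SE and open symbols have an adjusted p of 0.05 or more. GSK3B and DYRK1A remain positive at 0.97 and 0.42, and GSK3A, CDK5R1, CDK5R2, MARK1, MARK2 and MARK4 change sign.

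Gene span moved with the GC-removed values. The median GC-removed log2 fold change over protein-coding genes was -0.28 in the shortest decile of deposited gene spans (192 to 5823 bp), which holds CDK5, CDK5R1 and CDK5R2, and 0.28 in the longest (167764 to 2304997 bp), which holds GSK3B and MARK4. The deposited MARK4 span, 45079288 to 45305284, takes in other genes, while its RefSeq promoter window lies at 45251021 to 45251320. Its place in the longest decile may therefore overstate its length. The median was 0.17 in the decile with MARK1, MARK3 and DYRK1A, 0.13 in that with MARK2 and -0.13 in that with GSK3A, and the part of span in these results was not tested.

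The genes around each kinase, taken from 7 lists of 116 genes, moved in both directions: 35 of 112 tested were called higher and 28 lower, beside 26.0 and 23.0% of all tested genes. List medians of transcript GC content ran between 45.2% in the phosphatases and 58.0% in the GSK3 partners, and the part of GC content in the lists' counts was not tested beyond the GC-removed values below. Of 15 tested genes for GSK3 partners and upstream kinases, 1 rose and 6 fell. Their median log2 fold change was -0.60. AXIN1, the scaffold of the complex in which GSK3 phosphorylates beta-catenin, fell to 2.00 ± 0.560 CPM in IR+Oligonol, against 4.53 ± 0.684 CPM in IR control libraries (log2 fold change -1.19, SE 0.24, adjusted p = 0.00953, edgeR quasi-likelihood test). Of 10 CDK5 regulators, 2 rose and 2 fell. CAPN1, a calpain that cleaves the activator p35 into p25, fell to 8.90 ± 3.03 CPM in IR+Oligonol, against 18.1 ± 1.13 CPM in IR control libraries (log2 fold change -1.02, adjusted p = 0.0166, edgeR quasi-likelihood test), and CAST, the calpain inhibitor, rose to 2.44 ± 0.786 CPM in IR+Oligonol, against 1.22 ± 0.0665 CPM in IR control libraries (1.01, adjusted p = 0.0178). The CAPN1 call was lost with no filter on low counts (adjusted p = 0.0646, edgeR), and without the first (adjusted p = 0.0631) or the third (0.0671) IR+Oligonol library, and that of CAST without the first IR+Oligonol (0.0597) or the third control library (0.0526).

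Of 12 tested MARK regulators and relatives, 3 rose and 3 fell, beside 26.0 and 23.0% of all tested genes. NUAK1 and SIK1 did not pass the filter. CAB39, a scaffold for the MARK activator LKB1, rose to 2.19 ± 0.284 CPM in IR+Oligonol, against 1.06 ± 0.0936 CPM in IR control libraries (log2 fold change 1.05, adjusted p = 0.00883, edgeR quasi-likelihood test). TAOK2, a relative of the MARK-activating kinase TAOK1, fell to 3.35 ± 0.837 CPM in IR+Oligonol, against 6.47 ± 0.499 CPM in IR control libraries (-0.95, adjusted p = 0.0114, edgeR quasi-likelihood test), a call lost without the third IR+Oligonol library (0.0507). Of 10 DYRK1A partners and relatives, 4 rose and 1 fell. CLK1, a relative of DYRK1A, had 3.65 ± 0.997 CPM in IR+Oligonol and 1.83 ± 0.201 CPM in IR control libraries (1.00, adjusted p = 0.0140, edgeR quasi-likelihood test), and LIN52, a DYRK1A substrate in the DREAM complex, had 1.50 ± 0.135 CPM in IR+Oligonol and 0.812 ± 0.0451 CPM in IR control libraries (0.88, adjusted p = 0.0147, edgeR quasi-likelihood test). The LIN52 call was lost without the first (0.0590) or the third (0.0585) IR+Oligonol library and in DESeq2 (adjusted p = 0.0876).

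Of 30 tested other tau kinases, 10 rose and 9 fell, beside 26.0 and 23.0% of all tested genes. CAMK2A and MAPK13 did not pass the filter. PRKACB, a catalytic subunit of protein kinase A, rose to 4.12 ± 0.805 CPM in IR+Oligonol, against 1.17 ± 0.372 CPM in IR control libraries (log2 fold change 1.83, SE 0.28, adjusted p = 0.00655, edgeR quasi-likelihood test). Of 25 tau phosphatase genes and their regulators, 12 rose and 6 fell, again beside 26.0 and 23.0% of all tested genes. This list had the lowest median transcript GC content, 45.2%. With the GC trend removed, 1 of its genes was called higher and 0 lower, beside 2.90 and 2.52% of tested genes. PPP1CB, a catalytic subunit of protein phosphatase 1, rose to 9.97 ± 2.05 CPM in IR+Oligonol, against 2.17 ± 0.843 CPM in IR control libraries (2.20, SE 0.31, adjusted p = 0.00620, edgeR quasi-likelihood test). PPP3R1, the regulatory subunit of calcineurin, rose to 3.33 ± 0.598 CPM in IR+Oligonol, against 1.28 ± 0.184 CPM in IR control libraries (1.38, adjusted p = 0.00702, edgeR quasi-likelihood test). Of 10 substrates shared by these kinases, 3 rose and 1 fell. DCX, a microtubule-binding protein of young neurons, rose to 5.65 ± 0.304 CPM in IR+Oligonol, against 2.37 ± 0.130 CPM in IR control libraries (1.25, adjusted p = 0.00606, edgeR quasi-likelihood test), and GYS1, the glycogen synthase that GSK3 inhibits, fell to 2.19 ± 0.211 CPM in IR+Oligonol, against 4.64 ± 0.121 CPM in IR control libraries (-1.08, adjusted p = 0.00655, edgeR quasi-likelihood test).

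With the GC trend removed, edgeR's quasi-likelihood test called 4 of the list genes higher and none lower, beside 2.90 and 2.52% of tested genes. Of the list genes, 29 had an unadjusted p under 0.05 in that test. The 4 called were PRKACB (log2 fold change 0.67, edgeR adjusted p = 0.0463), PPP1CB (1.32, adjusted p = 0.0325), HIPK2 and CAMK2B. HIPK2 and CAMK2B were chosen for mention after their values were seen. The other 10 list genes given values above were not called with the trend removed, and CLK1 turned to -0.17.

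**Figure D5:**
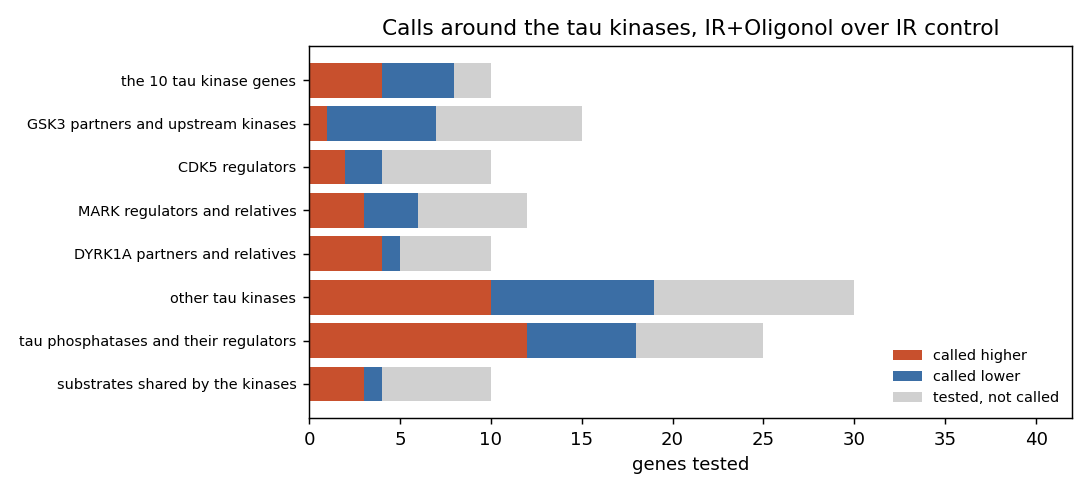
Number of tested genes in each list called higher, called lower and not called (IR+Oligonol over IR control, edgeR quasi-likelihood test with TMM scaling). The 10 kinase genes split into 4 higher and 4 lower, and the phosphatase list has 12 higher and 6 lower of 25. Over all tested genes, 26.0% were called higher and 23.0% lower. With the GC trend removed, not drawn here, 0 kinase genes were called, and 1 phosphatase gene was called higher and 0 lower.

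Within the lists, the gene with the profile most like each called kinase gene, by root mean square difference of centred log2 CPM over the 6 libraries, was PPP2R5D for GSK3A (0.0828), PRKACB for GSK3B (0.165), CAPNS1 for CDK5 (0.0788), DVL3 for CDK5R2 (0.0802), PPP2CA for both MARK1 (0.0887) and MARK3 (0.0855), CABLES2 for MARK4 (0.0916) and CAB39 for DYRK1A (0.0970). These are descriptions over 112 candidate genes. The GC trend was not removed from these profiles, and its part in the pairs was not tested.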

How the data were processed

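Total RNA of SH-SY5Y cells was extracted with TRIzol and made into TruSeq Stranded Total RNA libraries read as paired 100 nt reads, per the labels' protocols. Tools named without role or order, per the submitters' processing notes, are kallisto 0.46.1, FastQC and edgeR, and the build is GRCh38.p13. The deposited table holds estimated counts per gene, which the authors did not round, and a signal per gene that equals the estimated count times a constant per library. The signal was not used further. The step between low estimated counts depended on transcript length (48.2 to 53.9% of low values lay within 0.05 of a whole number of fitted steps), so values were read as per length, and read equivalents are approximate.

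Estimated counts were rounded, filtered with filterByExpr, scaled with TMM and tested with edgeR 4.0.16 (robust quasi-likelihood, 2-sided, Benjamini-Hochberg over all 16574 tested genes, threshold 0.05; R 4.3.3). The GC trend was a natural spline of log2 CPM on the median transcript GC content of GENCODE 29, available for 97.7% of tested genes, removed as an offset. Log2 ratios were tested by exact 2-sided permutation. DESeq2 1.42.0, limma-voom (limma 3.58.1), other scalings and filters, a replicate block and each library left out were alternatives. The pipeline was also run on simulated counts with the same dispersion for every gene, and no result given here rests on that run. Named were the 10 genes, the 2 genes of each list with the smallest p, and the nearest profile of each called gene. Of the list genes so named, 2 are not reported here. The members and lists were chosen with earlier results of these data known. Read totals per library are not given here. Protein-coding read equivalents summed to 5123265 to 5374660 in IR+Oligonol and 5083643 to 6250161 in IR control libraries. None of the 10 kinase genes shared identical values with another row.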

Additional observations from a re-analysis of the deposited data

How the results depend on the processing

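The counts of genes called (4304 higher, 3808 lower) stayed within 1.5 times under RLE or upper-quartile scaling, DESeq2, limma-voom, protein-coding genes alone, read equivalents and the replicate block, and GSK3B and DYRK1A stayed called except where the GC trend was removed. Same-numbered libraries shared little of their deviation from the group means (correlations 0.087, -0.009 and -0.147). With 3 libraries per group, these values cannot tell whether the libraries were paired. With the replicate block edgeR called 3560 genes higher and 3470 lower, and MARK1 (adjusted p = 0.0597) and MARK4 (0.0905) were no longer called. Scaled by library totals alone, 11293 genes were called higher and 37 lower, 8 kinase genes higher and 0 lower, and 87 list genes higher and 0 lower. Log2 fold changes then turned to 0.60 for GSK3A, 0.57 for CDK5, 0.83 for CDK5R1, 0.51 for CDK5R2, 1.20 for MARK2, 0.83 for MARK4, 0.17 for AXIN1, 0.30 for CAPN1, 0.40 for TAOK2 and 0.29 for GYS1. No kinase gene was called lower there in edgeR, with 8 at an unadjusted p under 0.05.

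With the GC trend removed, 470 genes were called higher and 409 lower in edgeR (4436 at an unadjusted p under 0.05), 0 and 0 kinase genes, and 4 and 0 list genes. Log2 fold changes turned to 0.085 for GSK3A, 0.19 for CDK5R1, 0.19 for CDK5R2, -0.20 for MARK1, 0.58 for MARK2, 0.40 for MARK4 and -0.17 for CLK1, and log2 ratios to -0.77 for MARK1 to MARK2 and -0.51 for MARK3 to MARK2. With the GC content of the longest transcript, an alternative chosen after seeing the data, 741 genes were called higher and 678 lower, 0 and 1 kinase genes, and 4 and 0 list genes, with CDK5 at 0.0042, CDK5R1 at 0.13, CDK5R2 at 0.19, MARK1 at -0.057, MARK2 at 0.71, MARK4 at 0.31 and CLK1 at -0.086. The replicate block with the GC trend removed gave 0 and 0 genes in edgeR (3984 at an unadjusted p under 0.05), 0 and 0 kinase genes and 0 and 0 list genes, with GSK3A at 0.081, CDK5R1 at 0.22, CDK5R2 at 0.20, MARK1 at -0.20, MARK2 at 0.58, MARK4 at 0.41 and CLK1 at -0.17.

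With no filter on low counts, 1603 genes were called lower, 2 kinase genes higher and 0 lower, and 13 list genes lower. With at least 10 counts in all libraries, 2 kinase genes were called lower and MARK2 turned to 0.065. Leaving out each library in turn gave 2118 to 4540 genes higher and 1321 to 4381 lower, 2 to 4 kinase genes higher and 0 to 4 lower (0 in edgeR without the first or the third IR+Oligonol library, where 6 had an unadjusted p under 0.05), and 22 to 38 list genes higher and 8 to 32 lower. Genes called numbered 2225 higher and 1459 lower without the first IR+Oligonol library, 2118 and 1321 without the third, and 2387 and 2466 lower without the second and the third control libraries. Log2 ratio differences ran between 2.06 and 2.72 for GSK3B to GSK3A, 0.09 and 0.67 for CDK5R1 to CDK5, -0.50 and -0.19 for CDK5R2 to CDK5R1, 0.63 and 0.91 for MARK1 to MARK2, 0.65 and 1.07 for MARK3 to MARK2, and -0.44 and -0.24 for MARK4 to MARK2. The cause of these changes was not tested.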

Other observations

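The gene that shares the GSK3B promoter region but is read the other way, GSK3B-DT, had 2.21 ± 0.566 CPM in IR+Oligonol and 2.04 ± 0.191 CPM in IR control libraries (SD, n = 3 each; log2 fold change 0.12, SE 0.23, adjusted p = 0.699, edgeR quasi-likelihood test). SLC4A2, which overlaps CDK5 on the opposite strand, fell to 14.4 ± 4.75 CPM in IR+Oligonol, against 31.9 ± 2.28 CPM in IR control libraries (log2 fold change -1.15, SE 0.27, adjusted p = 0.0130, edgeR quasi-likelihood test), and came to -0.20 (adjusted p = 0.367) with the GC trend removed. PPP1R37, which overlaps MARK4 on its strand, fell to 2.45 ± 0.340 CPM in IR+Oligonol, against 5.72 ± 0.628 CPM in IR control libraries (log2 fold change -1.23, SE 0.19, adjusted p = 0.00655, edgeR quasi-likelihood test), and came to -0.23 (adjusted p = 0.428) with the GC trend removed. These genes were chosen after their values were seen, and the sources used here do not say whether counting used strand.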
